A study of Mus musculus with 16 samples.

Results

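Fatty acid beta-oxidation genes were followed in the ventricles of mice that had eaten 1 of 4 diets. The set holds 31 genes, chosen by symbol from a fixed list of enzymes, carriers and regulators of this pathway, and all 31 were found among the 17737 genes of the deposited count table. All 31 also passed the filter on low counts, which left 13381 genes for testing. No gene of the set differed between diets past the adjusted threshold of edgeR (background 0% in the joint test). Single hearts stood apart: 21 of the 31 genes had their lowest level in 1 Chow heart, and 13 had their highest in 1 NIA heart. Such extremes were not counted over all tested genes, so they cannot be read as a trait of this set. The study asked how diet bears on ageing and fibrosis of the heart.

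The mice were male C57BL/6 animals, 6 weeks old when the diets began, and their hearts were taken after 6 months. There were 4 hearts per diet and 1 library per heart, 16 in all. The diets were 3 primate formulas, namely NIA, UW and mNIA, an NIA formula whose sucrose and fat were set to those of UW, and Chow, a standard rodent diet. No transgene or drug was used, and every animal shared sex, strain and age. The diet names follow the sample titles. The library codes do not spell these names: the NIA hearts are coded MNC, the UW hearts NC and the mNIA hearts UC. Read by their letters, the codes could stand for mNIA, NIA and UW in that order, which would rename every value of a single formula and every comparison between formulas, and the labels do not settle it. The mean of the 3 formulas against Chow does not depend on it.

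Beta-oxidation cuts fatty acids into acetyl-CoA and is the main source of energy of the adult heart. Long-chain fatty acids are first bound to CoA, then carried into mitochondria on carnitine. There, each turn of the spiral runs through an acyl-CoA dehydrogenase, a hydratase, a second dehydrogenase and a thiolase, and the electrons pass through the electron transfer flavoprotein to the respiratory chain. Peroxisomes run a related spiral on very long chains. The nuclear receptors PPAR alpha and PPAR delta, with the coactivator PGC-1 alpha, drive the transcription of many of these genes in heart.

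Libraries differed in depth and in composition. They held 3143343, 63005361, 5735048 and 2278223 counts in NIA replicates 1 to 4, 4880200 to 6583503 in UW, 3870426 to 6544134 in mNIA and 4263778 to 5953925 in Chow. The limma quality weight, which is low for a library far from the others of its diet, was under 0.5 in NIA replicate 1 (0.301), NIA replicate 4 (0.160), mNIA replicate 2 (0.360) and Chow replicate 3 (0.234). All 12 cardiomyocyte markers were present, with summed levels of 60807 to 129070 CPM in NIA, 66644 to 105390 CPM in UW, 72796 to 125210 CPM in mNIA and 63998 to 105120 CPM in Chow. Levels are given as CPM, counts scaled to a common library size with TMM factors. Of 7 adipocyte markers, 3 were listed, and their sum reached at most 0.670 CPM in any library.

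The 31 genes took 1.33% to 1.54% of all counts in NIA, 1.40% to 2.10% in UW, 1.28% to 1.95% in mNIA and 0.881% to 1.83% in Chow. Per kilobase of transcript, Hadhb stood highest with a mean of 903 CPM per kb over the 16 libraries. Hadhb encodes the thiolase subunit of the mitochondrial trifunctional protein. Etfb (820.5 CPM per kb), Acadl (733), Acadm (677) and Acaa2 (619) followed. The lowest were Ehhadh (4.99 CPM per kb), Ppard (7.71), Slc22a5 (9.03) and Cpt1a (14.1). The muscle isoform of carnitine palmitoyltransferase I, Cpt1b, was at 259 CPM per kb. The mitochondrial dehydrogenases and thiolases thus lay above the peroxisomal enzymes, of which Hsd17b4 reached 39.6 CPM per kb and Acaa1a 27.7.

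**Figure D1:**
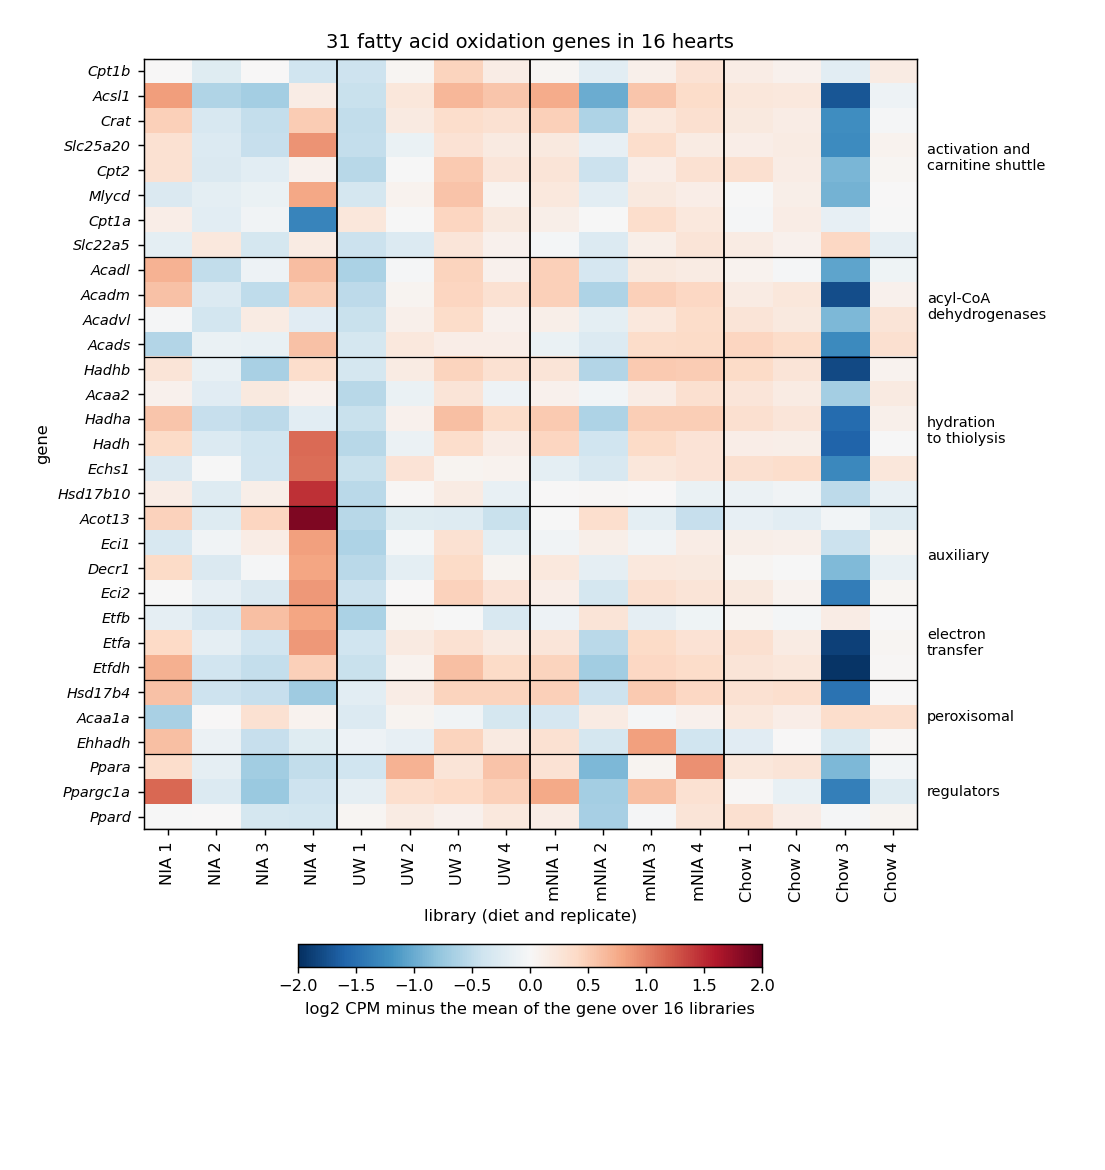
Colour gives the level of each gene (rows, grouped by role) in each library (columns) as log2 CPM, centred on its mean over the 16 libraries. The column of Chow replicate 3 is blue in most rows, with Etfdh at -1.97 and Etfa at -1.87, whereas Etfb in the same column is at 0.15 and Slc22a5 at 0.41.

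On the median, diet means of the 31 genes lay no farther apart than the spread between hearts gives. The median SD of the diet means was 0.183 on the log2 CPM scale in the 31 genes, and their median SD within diets was 0.482, which for means of 4 hearts gives 0.241 with no diet effect. Over all tested genes the median SD of the diet means was 0.205, against 0.211 with no diet effect. Chow replicate 3 was the lowest of the 16 libraries in 21 of the 31 genes and UW replicate 1 in 6. NIA replicate 4 was the highest in 13 and NIA replicate 1 in 6. These counts were not made over all tested genes. NIA replicate 4 and Chow replicate 3 had the lowest quality weights of the 16 libraries (0.160 and 0.234).

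A low level of these genes in Chow replicate 3 went with other groups of genes. Relative to the mean of each gene over the 16 libraries, the median level of the 31 genes in that library was -0.94 (log2), and 28 of 31 lay below their mean. The median of 20 citric acid cycle genes was -1.25 in the same library, that of 12 cardiomyocyte markers -0.41, that of 22 nuclear-encoded respiratory chain genes -0.28 and that of 12 endothelial markers 0.72. The median of 7 erythrocyte markers was 1.09 there, with 0 of 7 below their mean. Across libraries, the citric acid cycle genes followed the 31 genes, with medians of the same sign in each library. They were at 0.38 in NIA replicate 4 and -0.40 in UW replicate 1. The endothelial markers had the opposite sign in most libraries. The respiratory chain genes parted in some libraries, as in NIA replicate 3, at 0.26 against -0.36 for the 31 genes. In NIA replicate 4 the medians were 0.48 for the 31 genes, 0.97 for the respiratory chain genes and -0.97 for the endothelial markers. UW replicate 1 had -0.45 for the 31 genes, -0.47 for the cardiomyocyte markers and 0.65 for the endothelial markers. In tissue of this kind, fewer cells of a type and less RNA per cell cannot be told apart, and the part of cell composition in these levels was not tested.

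**Figure D2:**
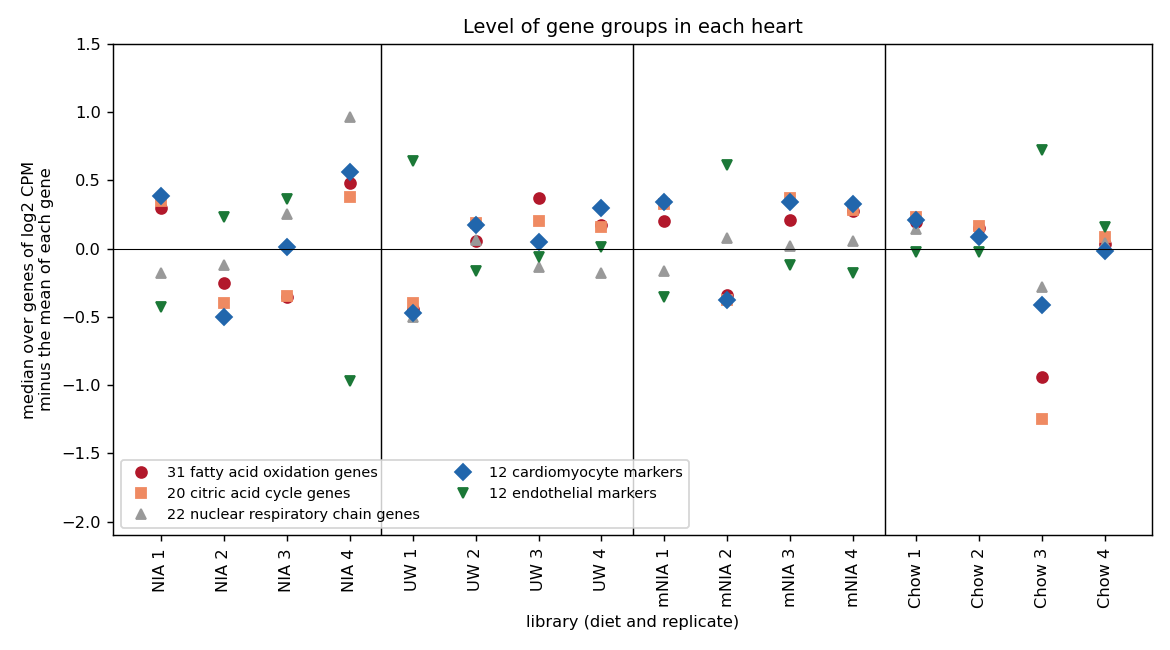
Each point is 1 library and 1 group of genes, at the median of log2 CPM after centring every gene on its mean over the 16 libraries. The fatty acid oxidation genes (red circles) and citric acid cycle genes (orange squares) lie lowest in Chow replicate 3, at -0.94 and -1.25, while the endothelial markers (green triangles) lie at 0.72 there.

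The edgeR quasi-likelihood test called none of the 31 genes in any comparison at an adjusted p under 0.05. The background was as low: the share of all tested genes called was 0% in the joint test of any diet difference, in the mean of the 3 formulas against Chow, and in 5 of the 6 pairs, and 0.00747% (1 gene) in mNIA against Chow. An unadjusted p under 0.05 was reached in the joint test by 1 of the 31 genes (6.88% of all genes), in the mean of the formulas against Chow by 0 (2.19%), in NIA against Chow by 2 (8.7%), in UW against Chow by 1 (2.35%) and in mNIA against Chow by 0 (1.38%). Between formulas it was reached by 3 genes in UW against NIA (13.9%), 1 in mNIA against NIA (8.91%) and 0 in mNIA against UW (0.986%). DESeq2 called 1 gene, Acot13, in the joint test (1.3% of all genes), in NIA against Chow (0.949%) and in UW against NIA (2.8%). It called 0 in the other comparisons, at a background of 0% to 0.0224%. Limma-voom with sample weights called 1 gene in the joint test (Ppargc1a, 14.8% of all genes) and 1 in mNIA against NIA (Hsd17b4, 14.8%). It called 0 in the mean of the formulas (0.0299%), in NIA against Chow (0.209%), in UW against NIA (6.85%) and in the remaining pairs (0.00747%).

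For the mean of the 3 formulas against Chow, 25 of the 31 genes had a higher and 6 a lower fitted mean, with a median log2 fold change of 0.19, against 0.0023 over all tested genes. This median rested on Chow replicate 3: without that library it was -0.01, with 15 genes higher and 16 lower, and the median of all genes was 0.03. The medians of the single formulas against Chow were 0.23 in NIA, 0.18 in UW and 0.26 in mNIA with all libraries. Without Chow replicate 3 they were -0.01 in NIA, -0.05 in UW and 0.03 in mNIA. Leaving out NIA replicate 4 instead also brought the median of NIA against Chow to -0.01. All these comparisons share the Chow libraries. Citric acid cycle genes behaved likewise, with 18 of 20 higher (median 0.13) with all libraries and 5 of 20 (median -0.05) without Chow replicate 3.

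**Figure D3:**
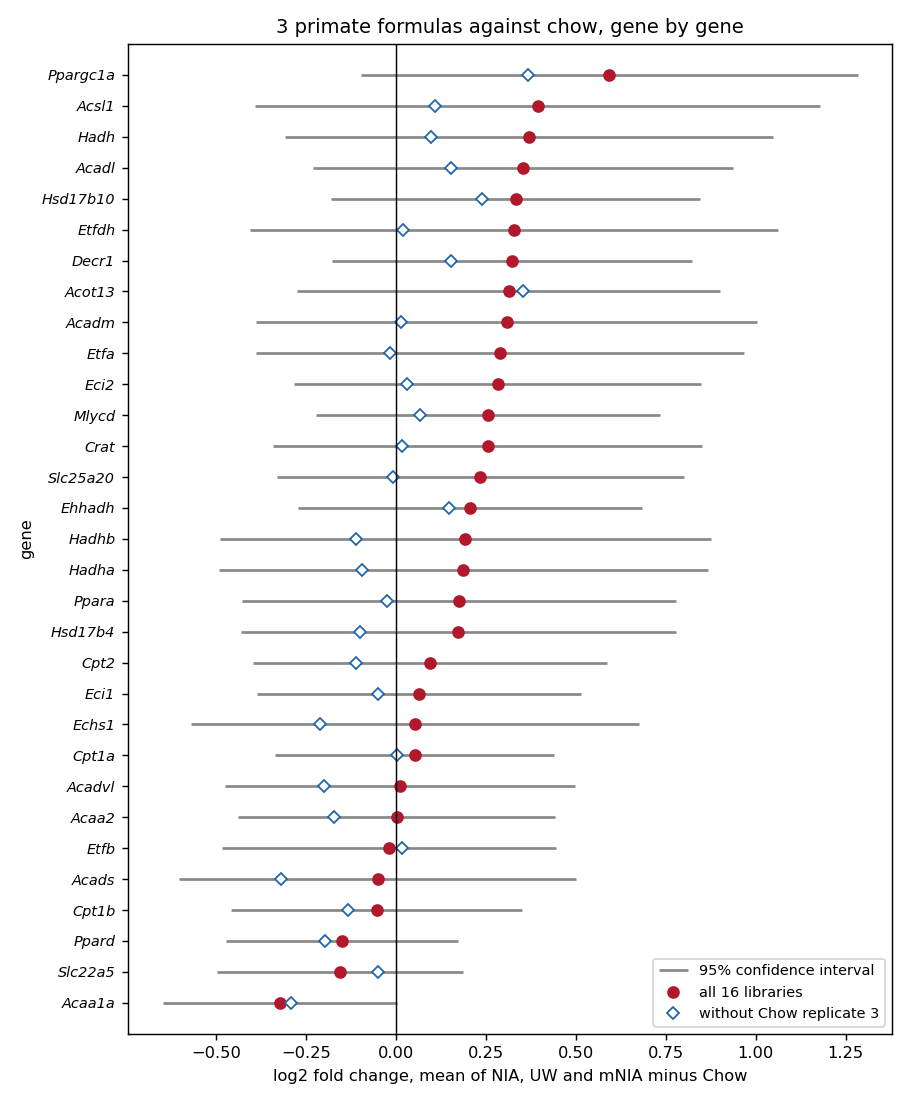
Log2 fold change of each gene, mean of NIA, UW and mNIA minus Chow, with all 16 libraries (filled circles, with the 95% confidence interval) and without Chow replicate 3 (open diamonds). All 31 intervals include 0, and 15 diamonds lie above 0.

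Between formulas, the medians of the edgeR fit were near 0, and those against NIA moved with the weight given to single libraries. UW against NIA had 16 genes higher and 15 lower (median 0.0041, against -0.0036 over all genes), mNIA against NIA had 19 and 12 (0.06, against -0.0075) and mNIA against UW had 22 and 9 (0.07, against 0.02). With limma-voom and its sample weights, 24 of 31 genes were higher in UW against NIA (median 0.28, against -0.02 over all genes) and 26 in mNIA against NIA (0.36, against -0.02). Without NIA replicate 4, edgeR gave 23 higher in UW against NIA (0.14) and 28 in mNIA against NIA (0.16).

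Among the genes of activation and the carnitine shuttle, Cpt1b was the most abundant per length. It encodes the outer-membrane enzyme that commits long-chain fatty acids to mitochondrial import in muscle (chr15:89416405-89425863, mm10). In replicates 1 to 4, the order used for every gene, Cpt1b was at 742, 628, 744 and 560 CPM in NIA, 557, 765, 1006 and 820 CPM in UW, 760, 638, 799 and 903 CPM in mNIA, and 823, 790, 642 and 826 CPM in Chow. The 4 diets overlapped, and the highest library exceeded the lowest by a factor of 1.81. For the mean of the formulas against Chow the log2 fold change of Cpt1b was -0.05 ± 0.19 (SE).

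Cpt1a, the isoform that predominates in liver (chr19:3323301-3385734), was at 65.0, 51.3, 56.6 and 23.5 CPM in NIA, 69.7, 59.1, 80.2 and 67.8 CPM in UW, 64.1, 58.7, 75.2 and 68.5 CPM in mNIA, and 58.4, 66.0, 52.8 and 59.0 CPM in Chow. NIA replicate 4 alone lay far below the rest. In UW against NIA its log2 fold change was 0.48 ± 0.23 (SE, edgeR adjusted p = 0.36), and without NIA replicate 4 it was 0.29 ± 0.16. In mNIA against NIA it was 0.42 ± 0.23 (adjusted p = 0.602). The CPM ratio of Cpt1b to Cpt1a was 23.9 in NIA replicate 4 and 7.99 to 14.1 in the other 15 libraries.

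The other genes of entry were called in no comparison either. Acsl1, which activates long-chain fatty acids, was highest in NIA replicate 1 at 1601 CPM, against 274 CPM in Chow replicate 3, a factor of 5.85. It averaged 936 ± 486 CPM in NIA, 1109 ± 339 in UW, 1102 ± 458 in mNIA and 796 ± 362 in Chow (SD, n = 4 each). Slc25a20, the carnitine-acylcarnitine carrier, averaged 242 ± 108 CPM in NIA, 208 ± 47.1 in UW, 231 ± 33.6 in mNIA and 192 ± 70.7 in Chow. Cpt2, which returns the acyl group to CoA inside the mitochondrion, averaged 229 ± 43.4 CPM in NIA, 247 ± 73.6 in UW, 245 ± 51.1 in mNIA and 225 ± 71.8 in Chow. Crat, carnitine acetyltransferase, and Mlycd, which breaks down the CPT1 inhibitor malonyl-CoA, had log2 fold changes of 0.25 ± 0.28 and 0.26 ± 0.23 for the mean of the formulas against Chow. Slc22a5, the carnitine importer, ranged from 20.2 to 36.3 CPM and had its highest level in Chow replicate 3.

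Acadl, long-chain acyl-CoA dehydrogenase (chr1:66830839-66863310), was the most abundant of the 4 acyl-CoA dehydrogenases and also the one with the smallest joint p. It was at 2175, 950.5, 1252 and 2064 CPM in NIA, 865, 1327, 1824 and 1424 CPM in UW, 1858, 1059, 1532 and 1509 CPM in mNIA, and 1415, 1318, 643 and 1267 CPM in Chow. NIA held both the highest libraries and 1 of the lowest, and all diets overlapped. For the mean of the formulas against Chow, Acadl had a log2 fold change of 0.35 ± 0.28 (SE), and 0.15 ± 0.28 without Chow replicate 3. Acadm, the medium-chain enzyme, averaged 1438 ± 523 CPM in NIA, 1396 ± 370 in UW, 1534 ± 463 in mNIA and 1175 ± 536 in Chow. Acadvl, the very-long-chain enzyme, averaged 998 ± 160.5 CPM in NIA, 1115 ± 245 in UW, 1179 ± 187 in mNIA and 1087 ± 345 in Chow. Acads, the short-chain enzyme, averaged 162 ± 58.0 CPM in NIA, 168 ± 27.6 in UW, 177 ± 40.8 in mNIA and 175 ± 71.8 in Chow. The CPM ratio of Acadm to Acadvl was highest in NIA replicate 4 at 2.00, against 0.659 in Chow replicate 3, with a median of 1.24.

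Hadhb (chr5:30155253-30184594) led the enzymes from hydration to thiolysis. It was at 2061, 1561, 1108 and 2203 CPM in NIA, 1357, 1944, 2353 and 2143 CPM in UW, 2070, 1148, 2482 and 2463 CPM in mNIA, and 2262, 2079, 497 and 1824 CPM in Chow. Chow replicate 3 was the lowest of the 16 libraries, and the other 3 Chow libraries lay within the range of the formulas. Hadhb had a log2 fold change for the mean of the formulas against Chow of 0.19 ± 0.32 (SE), and -0.11 ± 0.27 without that library.

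Hadha, the other subunit of the trifunctional protein, lies next to Hadhb on the opposite strand (chr5:30119423-30154981), with 271 bases between the genes. Its level followed that of Hadhb in most libraries: the CPM ratio of Hadhb to Hadha had a median of 1.09 and lay between 0.875 in NIA replicate 1 and 1.60 in NIA replicate 4. The second highest ratio, 1.35, was also in NIA (replicate 2). Windows of 300 bases at the starts of both genes, from 250 before to 50 after, overlap by 228 bases (RefSeq, GRCm38.p6). The Hadhb window is shown because most of it is shared with the window of its partner, with GC boxes (GGGCGG, either strand) in capitals.
Hadhb, chr5:30155003-30155302, strand +: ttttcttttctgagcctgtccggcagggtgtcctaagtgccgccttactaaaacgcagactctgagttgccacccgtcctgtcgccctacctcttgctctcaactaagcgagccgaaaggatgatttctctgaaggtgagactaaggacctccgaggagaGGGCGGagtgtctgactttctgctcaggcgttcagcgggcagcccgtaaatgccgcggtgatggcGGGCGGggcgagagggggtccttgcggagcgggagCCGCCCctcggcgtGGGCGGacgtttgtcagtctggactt
The GC box was found in 20 of the 26 windows of the set, which belong to 25 genes, and in 35.7% of the 32851 windows of all genes. The windows of all genes were not limited to genes tested here, so the 2 shares are not alike. Here a match describes letters, not a bound site.

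Hsd17b10, a dehydrogenase that also serves isoleucine breakdown and mitochondrial tRNA processing (chrX:152001896-152004443), had the smallest joint p of the spiral enzymes (0.0902, edgeR adjusted p = 0.813). It was at 134, 101, 132 and 332 CPM in NIA, 83.1, 123, 136 and 109 CPM in UW, 121, 123, 121 and 110.3 CPM in mNIA, and 111, 116, 84.2 and 109 CPM in Chow. Only NIA replicate 4 stood out. The log2 fold change in NIA against Chow was 0.72 ± 0.30 (SE, adjusted p = 0.493), and 0.21 ± 0.19 without NIA replicate 4. In UW against NIA it was -0.62 ± 0.29 (adjusted p = 0.36), and -0.09 ± 0.19 without that library. In mNIA against NIA it was -0.54 ± 0.29 (adjusted p = 0.606), and -0.04 ± 0.19 without it. For the mean of the formulas against Chow it was 0.33 ± 0.24 (adjusted p = 0.938), and 0.16 ± 0.15 without that library.

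Among the other enzymes of the spiral, Hadh, the hydroxyacyl-CoA dehydrogenase of shorter chains, was highest in NIA replicate 4 at 1489 CPM, against 223 CPM in Chow replicate 3. Echs1, the short-chain enoyl-CoA hydratase, had its extremes in the same libraries, at 580 CPM in NIA replicate 4 against 109 CPM in Chow replicate 3. Acaa2, the medium-chain thiolase, was steadier, between 579 and 1152 CPM. Its log2 fold change in mNIA against UW was 0.23 ± 0.26 (SE, edgeR adjusted p = 1), 1 of the 3 smallest p-values of the set there.

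Acot13, a mitochondrial acyl-CoA thioesterase (chr13:24817955-24831490), had the smallest joint p of all 31 genes (0.00723, edgeR adjusted p = 0.472). It was at 422, 257, 413 and 1113 CPM in NIA, 209, 259.95, 257 and 226 CPM in UW, 306, 386, 269 and 222 CPM in mNIA, and 274, 264, 295 and 256 CPM in Chow. NIA replicates 1, 3 and 4 lay above all UW and Chow libraries, and replicate 2, the deepest library, lay among them. The log2 fold change in NIA against Chow was 1.01 ± 0.34 (SE, edgeR adjusted p = 0.423, DESeq2 adjusted p = 0.0485). Without NIA replicate 4 it was 0.42 ± 0.22. In UW against NIA it was -1.21 ± 0.34 (edgeR adjusted p = 0.161, DESeq2 adjusted p = 0.0146), and -0.59 ± 0.22 without NIA replicate 4. Leaving out NIA replicate 2 gave -1.44 and an edgeR adjusted p of 0.0271, with 1.61% of all genes called. In mNIA against NIA the log2 fold change was -0.89 ± 0.34 (adjusted p = 0.549), and in mNIA against UW 0.31 ± 0.34 (adjusted p = 1).

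Transcript length moved with the levels of NIA replicate 4. Across the 31 genes, the deviation of a gene in that library fell with its transcript length (Spearman rho -0.712), as it did across 13260 genes (rho -0.503). Genes are not independent replicates, so these are descriptions. Acot13 (721 bases), Etfb (893 bases) and Hsd17b10 (962 bases) have the shortest transcripts of the set and were highest in NIA replicate 4, while Cpt1a, with 4317 bases, was lowest there. Some longer genes were also highest there, such as Crat (4028.5 bases) and Decr1 (2959 bases). The longest, Ppargc1a (6464 bases), was lowest in Chow replicate 3. The rho over the 31 genes was -0.571 in mNIA replicate 2 and -0.536 in NIA replicate 3, and 0.633 in UW replicate 4. In Chow replicate 3 it was -0.06, while the rho with GC content was 0.464 there and -0.73 in NIA replicate 1. The part of length and GC content in the differences between diets was not tested.

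Among the enzymes that handle double bonds, Decr1, the dienoyl-CoA reductase, averaged 675 ± 224 CPM in NIA, 545 ± 145 in UW, 604 ± 76.3 in mNIA and 484 ± 124 in Chow (SD, n = 4 each). Its log2 fold change was 0.48 ± 0.29 (SE) in NIA against Chow and 0.32 ± 0.29 in mNIA against Chow, with edgeR adjusted p-values of 0.649 and 0.983. The isomerases Eci1 and Eci2 ranged from 172 to 467 CPM and from 55.7 to 265 CPM.

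The electron transfer flavoprotein has 2 subunits, encoded by Etfa and Etfb, and hands its electrons to the oxidoreductase encoded by Etfdh. Etfb (chr7:43444072-43457801) was at 626, 562, 1078 and 1227 CPM in NIA, 459, 733, 711 and 567 CPM in UW, 668, 855, 627 and 673 CPM in mNIA, and 734, 695, 791 and 717 CPM in Chow. Etfa (chr9:55454436-55512244), described here because its values part from those of its partner, was at 814, 542, 472 and 1124 CPM in NIA, 465, 696, 756 and 699 CPM in UW, 726, 423, 799 and 753 CPM in mNIA, and 769, 688, 168 and 630 CPM in Chow. In Chow replicate 3 Etfb was the highest of the Chow libraries and Etfa the lowest of all 16.

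The CPM ratio of Etfa to Etfb was 0.212 in Chow replicate 3, 0.438 in NIA replicate 3 and 0.495 in mNIA replicate 2, and 0.879 to 1.30 in the other 13 libraries. These 3 libraries belong to 3 diets. Etfa and Etfdh kept together: their ratio ran from 0.730 to 1.18, and in Chow replicate 3 it was 0.963. For the mean of the formulas against Chow the log2 fold changes were -0.02 ± 0.22 (SE) for Etfb, 0.29 ± 0.32 for Etfa and 0.33 ± 0.35 for Etfdh. Without Chow replicate 3 those of Etfa and Etfdh were -0.02 ± 0.26 and 0.02 ± 0.30. The promoter windows of the partners that parted are shown with GC boxes in capitals.
Etfa, chr9:55512194-55512493, strand −: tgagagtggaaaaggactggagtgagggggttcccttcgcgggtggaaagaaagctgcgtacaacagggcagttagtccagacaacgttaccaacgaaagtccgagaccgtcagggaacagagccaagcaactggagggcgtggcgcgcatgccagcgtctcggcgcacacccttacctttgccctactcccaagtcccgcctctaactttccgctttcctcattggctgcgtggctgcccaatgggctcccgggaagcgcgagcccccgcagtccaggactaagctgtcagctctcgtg
Etfb, chr7:43443822-43444121, strand +: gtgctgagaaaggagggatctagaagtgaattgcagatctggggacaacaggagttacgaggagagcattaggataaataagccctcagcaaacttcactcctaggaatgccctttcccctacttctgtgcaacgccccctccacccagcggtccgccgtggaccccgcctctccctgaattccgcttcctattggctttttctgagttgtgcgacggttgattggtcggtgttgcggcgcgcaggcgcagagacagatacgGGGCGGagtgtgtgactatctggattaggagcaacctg
The Etfa window holds no GC box and the Etfb window holds 1. Whether the windows, or the length and GC content of the transcripts, bear on the ratio was not tested.

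**Figure D4:**
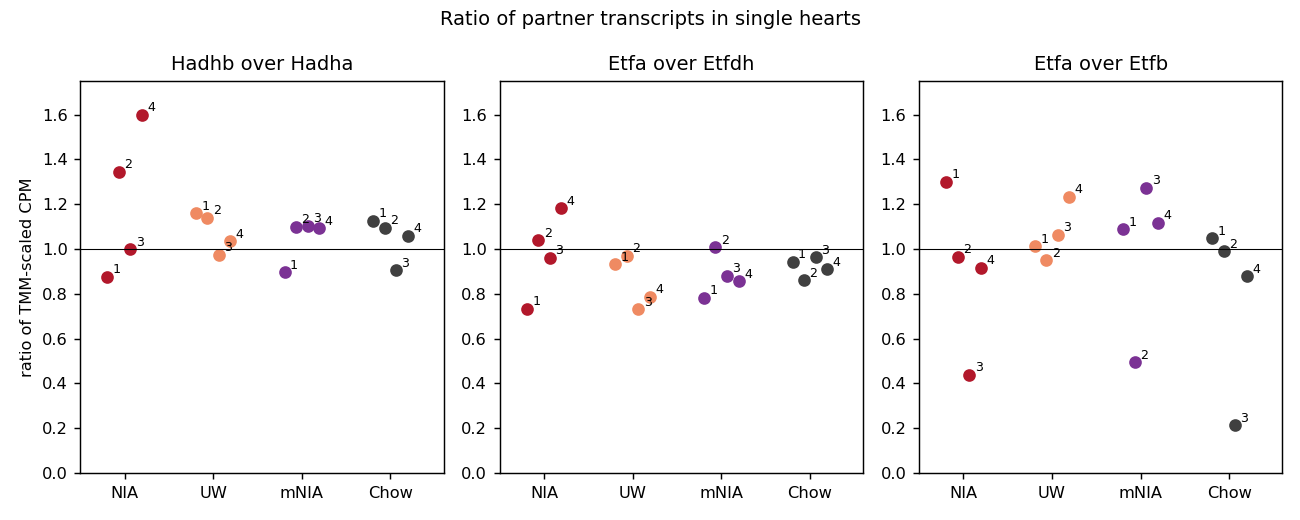
Ratio of TMM-scaled CPM of partner genes in each heart (points, numbered by replicate), by diet. Hadhb over Hadha runs from 0.875 to 1.60 and Etfa over Etfdh from 0.730 to 1.18, while Etfa over Etfb falls to 0.438 in NIA replicate 3, 0.495 in mNIA replicate 2 and 0.212 in Chow replicate 3.

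Acaa1a, the peroxisomal thiolase (chr9:119341294-119350296), was the gene of the set with the smallest p for the mean of the formulas against Chow. It was at 30.6, 48.1, 59.1 and 50.5 CPM in NIA, 39.7, 50.1, 45.6 and 37.6 CPM in UW, 38.1, 53.6, 47.5 and 51.3 CPM in mNIA, and 55.6, 52.8, 61.2 and 60.5 CPM in Chow. All 4 UW hearts lay below all 4 Chow hearts, as did 2.48% of all tested genes, and 1 of the 31 genes did so. The log2 fold change was -0.32 ± 0.16 (SE, edgeR adjusted p = 0.938) for the mean of the formulas, -0.41 ± 0.19 (adjusted p = 0.977) in UW against Chow and -0.27 ± 0.19 (adjusted p = 0.983) in mNIA against Chow. Without Chow replicate 3 the value for the mean was -0.29 ± 0.17. A near-identical paralogue, Acaa1b, exists, and how reads shared between them were counted is not given in the sources used here.

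Hsd17b4, the peroxisomal multifunctional enzyme (chr18:50128201-50196271), was at 150, 74.9, 72.5 and 61.2 CPM in NIA, 86.0, 110.2, 136 and 136 CPM in UW, 139, 75.1, 144 and 132 CPM in mNIA, and 123, 126, 35.7 and 100.3 CPM in Chow. NIA had 3 low hearts and 1 high, and mNIA 3 high and 1 low. The log2 fold change in mNIA against NIA was 0.45 ± 0.35 (SE, edgeR adjusted p = 0.735). The call of limma-voom for it came from a separate, weighted fit (adjusted p = 0.0414). That fit gave low weights to the high NIA heart (replicate 1, 0.301) and the low mNIA heart (replicate 2, 0.360). NIA replicate 4, among the low NIA hearts, had a low weight as well (0.160). Ehhadh, the bifunctional enzyme of peroxisomes, was the least abundant gene of the set, at 10.4 to 25.4 CPM.

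Of the regulators, Ppara, the receptor PPAR alpha (chr15:85735564-85806852), was at 110, 75.9, 53.2 and 61.2 CPM in NIA, 65.0, 140, 103 and 128 CPM in UW, 105, 46.1, 89.5 and 162 CPM in mNIA, and 101, 103, 45.9 and 82.4 CPM in Chow. All diets overlapped. In UW against Chow its log2 fold change was 0.39 ± 0.35 (SE, edgeR adjusted p = 0.977).

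Ppargc1a, the coactivator PGC-1 alpha (chr5:51454249-51567726), was at 223, 82.9, 60.4 and 75.4 CPM in NIA, 89.0, 127, 133 and 141 CPM in UW, 170, 62.6, 153 and 125 CPM in mNIA, and 103, 91.2, 39.1 and 84.3 CPM in Chow. In UW and mNIA, 3 of 4 hearts each lay above every Chow heart, and in NIA 1 of 4 did. The log2 fold change was 0.59 ± 0.33 (SE, 95% confidence interval -0.10 to 1.28, edgeR adjusted p = 0.938) for the mean of the formulas against Chow, the largest of the set. It was 0.62 ± 0.39 in UW against Chow and 0.68 ± 0.39 in mNIA against Chow (adjusted p = 0.977 and 0.983). Without Chow replicate 3 the value for the mean was 0.37 ± 0.33. The joint test of limma-voom called Ppargc1a (adjusted p = 0.0384). Its weighted fit gave low weights to the highest heart, NIA replicate 1 (0.301), and the lowest, Chow replicate 3 (0.234).

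Ppard, the receptor PPAR delta, was at 25.6, 27.9, 26.5 and 28.8 CPM in UW, against 24.7, 25.1, 19.4 and 19.2 CPM in NIA. It averaged 24.4 ± 6.28 CPM in mNIA and 27.3 ± 2.90 CPM in Chow (SD, n = 4 each). All 4 UW hearts lay above all 4 NIA hearts, as in 3.29% of all genes. UW against NIA gave a log2 fold change of 0.29 ± 0.19 (SE, edgeR adjusted p = 0.542), and in mNIA against UW it was -0.15 ± 0.19 (adjusted p = 1).

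**Figure D5:**
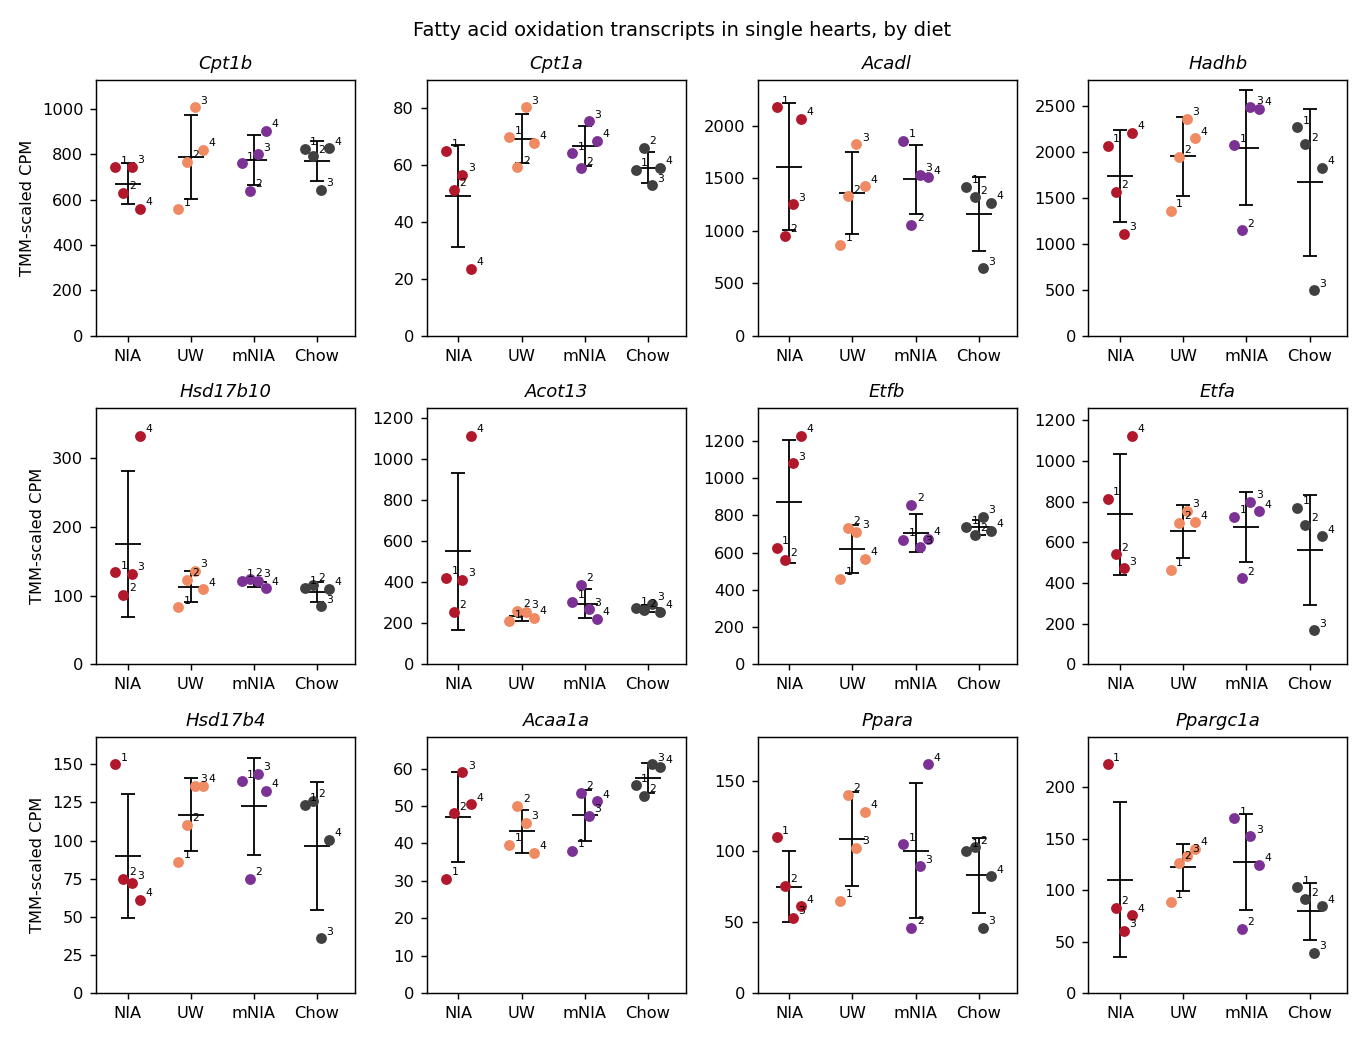
TMM-scaled CPM of 12 genes in each heart (points, numbered by replicate), with the mean (long bar) and SD (whiskers) of 4 hearts per diet. The diets overlap in every panel except UW and Chow for Acaa1a, and single hearts such as NIA replicate 4 for Acot13 (1113 CPM) and Chow replicate 3 for Etfa (168 CPM) lie far from the others of their diet.

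The letters bound by PPAR alpha and related receptors were searched on both strands of the windows. The core motif AGGTCA was found in 4 of the 25 genes that had a window (Acadm, Acadvl, Cpt1a and Echs1) and in 16.3% of all windows. A direct repeat with 1 base between, AGGTCANAGGTCA, was found in 0 of the 25 genes and 0.0396% of windows. The extended motif TCAAGGTCA, bound by estrogen-related receptors, was in 0 of 25 and 0.423%. Both longer motifs contain the core motif. The Acadm window is shown for its 1 copy of the core, in capitals as TGACCT.
Acadm, chr3:153944594-153944893, strand −: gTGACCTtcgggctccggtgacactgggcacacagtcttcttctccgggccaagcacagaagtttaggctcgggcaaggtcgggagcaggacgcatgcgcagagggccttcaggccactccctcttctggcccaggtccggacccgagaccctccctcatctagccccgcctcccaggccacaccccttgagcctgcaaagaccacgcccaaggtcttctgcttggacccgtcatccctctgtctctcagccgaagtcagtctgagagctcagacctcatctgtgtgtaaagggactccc
The genes Acaa2, Crat, Cpt1b, Acot13, Decr1 and Hsd17b4 had no window in the table used.

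Genes of neighbouring functions were read the same way. Of 31 tested genes among 32 others of beta-oxidation and its supply, 18 were higher and 13 lower for the mean of the formulas against Chow (median log2 fold change 0.03), and edgeR called 0 in any comparison. Of 20 genes of fatty acid uptake and other PPAR targets, 12 were higher and 8 lower (median 0.08), and of 20 partners of the regulators 14 were higher and 6 lower (median 0.10), with 0 called in either. In the joint test, DESeq2 called 1 gene of the 71 tested in these 3 lists (1.3% of all genes) and limma-voom 9 (14.8%), while 2 had an unadjusted edgeR p under 0.05 (6.88%). Pdk4, a kinase that restrains glucose oxidation and a PPAR target, averaged 545 ± 432 CPM in NIA, 926 ± 1027 in UW, 564 ± 312 in mNIA and 236 ± 128 in Chow (SD, n = 4 each), with a log2 fold change of 1.48 ± 0.62 (SE, adjusted p = 0.938) for the mean.

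Acaca and Acacb make malonyl-CoA, the inhibitor of CPT1. Acaca averaged 8.66 ± 5.41 CPM in NIA, 21.5 ± 3.92 in UW, 18.7 ± 3.04 in mNIA and 17.9 ± 1.25 in Chow. It ran from 0.711 to 12.9 CPM in NIA, against at least 14.1 CPM in the other hearts. All UW hearts lay above all NIA hearts in 3.29% of all genes, and all mNIA hearts did so in 1.46%. All NIA hearts lay below all Chow hearts in 1.91%. In UW against NIA its log2 fold change was 1.16 ± 0.32 (SE, edgeR adjusted p = 0.147), and that of Acacb was 0.85 ± 0.30 (adjusted p = 0.224). Mcee, a racemase of odd-chain fatty acid breakdown, ran the other way, at 63.4 ± 9.38 CPM in UW against 145 ± 103 CPM in NIA (-1.18 ± 0.32, adjusted p = 0.147). Single NIA hearts were spread from 80.4 to 299 CPM for Mcee. The lowest NIA value of Acaca, 0.711 CPM, lies near the floor. The NIA values of Acaca, Acacb and Mcee include NIA replicate 4, the library with the fewest counts (2278223) and the lowest quality weight (0.160). Fold changes of these genes without that library are not given here. Plin2, a lipid droplet coat protein, averaged 68.8 ± 17.3 CPM in UW against 46.1 ± 4.23 CPM in NIA (adjusted p = 0.213). The remaining named genes of these lists, Prkaa1, Rxra, Med1 and Txnip, had joint adjusted p-values of 0.804 to 0.932.

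Calls between NIA and the other formulas appeared when the 4 libraries of low weight were left out, a step chosen after seeing the data that narrows the spread by construction and leaves 2 NIA hearts. In mNIA against NIA, 11 of 31 genes then passed, against 23.1% of the 13781 tested genes in either direction. All 11 were higher in mNIA, and the median of the 31 was 0.46, against -0.0355 over all tested genes. They were Acsl1, Slc25a20, Crat, Acadm, Hadha, Hadhb, Hadh, Etfa, Etfdh, Hsd17b4 and Ppargc1a, with Acsl1 at 1.20 ± 0.25 (SE, edgeR adjusted p = 0.00401) and Ppargc1a at 1.04 ± 0.20 (adjusted p = 0.00267). In UW against NIA, 4 passed (11.8% of all genes), Acsl1 (0.97 ± 0.24), Hadha (0.72 ± 0.22), Hsd17b4 (0.68 ± 0.17) and Ppargc1a (0.78 ± 0.19). The median of the 31 was 0.35 there, against 0.0075 over all tested genes. In NIA against Chow 0 of 31 passed (1.63% of all genes). There, 28 of 31 genes were lower and the median was -0.35, against 0.0073 over all tested genes. The joint test called 4 (9.97% of all genes).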

How the data were processed

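Poly-A RNA of 16 hearts was read as stranded libraries, per the labels' protocols. The deposited table holds estimated counts per gene, not normalized; the authors used BWA, DESeq2 and build mm10, per the submitters' processing notes, and versions, the counting tool and the gene models are not given in the sources used here. Library sums run from 2278223 to 63005361, so depth differs widely. Values were rounded to whole counts. Groups follow the diet in the sample titles.

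Genes were kept by filterByExpr (13381, 75.4%), scaled by TMM, and tested with edgeR 4.0.16 (R 4.3.3): quasi-likelihood, robust, 1 mean per diet, 2-sided, Benjamini-Hochberg over all tested genes, threshold 0.05. The biological coefficient of variation, common to all genes, came to 0.278. The 6 pairs, the mean of the 3 formulas against Chow and a joint test were run. P-values rest on 4 animals per diet. Levels per kilobase used the median length of the principal protein-coding transcripts of GENCODE vM21, and promoter windows came from RefSeq, GRCm38.p6, whose table held 25 of the 31 genes. Positions are those of the deposited table, counted from 1.

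The alternatives were RLE and upper-quartile scaling, DESeq2 1.42.0, limma-voom (limma 3.58.1), 2 other filters, a replicate block, the compared libraries alone and each library left out. Leaving out the 4 libraries of weight under 0.5 was added after seeing the data. The genes of the set and all gene lists were chosen with earlier results of these data known. In each role group, values are given for the gene most abundant per kilobase and the gene with the smallest joint p; fold changes are given for the 3 genes with the smallest p of each comparison; of each other fat-use list, the 3 genes with the smallest joint p, and Pdk4, are named. Further genes were chosen after their values were seen. The fit was tested on simulated counts. In UW against Chow it called 42 of 100 genes changed 2-fold and 98 of 100 changed 4-fold, with 5 false calls. Each gene was drawn independently, and only genes above a minimum mean level were changed. The simulated counts held no shifts shared by many genes of a library, which the real libraries show. These numbers therefore do not give the power or error rate of the test on the real data.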

Additional observations from a re-analysis of the deposited data

Results flagged for a closer look

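Of 124 groups of 4 hearts (31 genes in 4 diets), 20 held a heart whose gap to its nearest neighbour took a share of the range of the group above Dixon's 95% critical value. Chance gives about 1 in 20 such groups, or 6.2 of 124, if the genes were independent, which they are not: 4 libraries held all 20. The critical value also assumes normally distributed CPM. This measure was not run over all tested genes, so the 20 groups cannot be read as a trait of this set.

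In Chow replicate 3 the lowest level by this measure was found in 10 genes. The mitochondrial thiolase Acaa2 was at 579 CPM there, against 1031 to 1089 CPM in the other Chow hearts. The acyl-CoA dehydrogenases Acadm (376 CPM, against 1371 to 1513), Acadvl (571, against 1220 to 1279, all CPM) and Acads (67.5, against 203 to 219) were also low. So were Hadh (223 CPM), Echs1 (109 CPM), Eci1 (197 CPM), Eci2 (55.7 CPM), Slc25a20 (86.6 CPM) and Mlycd (49.3 CPM).

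In mNIA replicate 2 it was found in 5 genes, all low: Acadm (840 CPM, against 1714 to 1791 in the other mNIA hearts), Decr1 (490.2 CPM, against 637 to 646), Etfdh (420 CPM, against 879 to 930), Hadha (1045 CPM, against 2250 to 2312) and Hsd17b4 (75.1 CPM, against 132 to 144). NIA replicate 4 was high in 3 genes: Echs1 (580 CPM, against 205 to 265 in the other NIA hearts), Hsd17b10 (332 CPM, against 101 to 134) and Mlycd (162 CPM, against 77.2 to 86.3). NIA replicate 1 was high in 2, Hsd17b4 (150 CPM, against 61.2 to 74.9) and Ppargc1a (223 CPM, against 60.4 to 82.9). The part of depth, cell composition and RNA quality in these values was not tested.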

How the results depend on the processing

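With DESeq2, 1 of the 31 genes was called in the joint test, 1 in NIA against Chow and 1 in UW against NIA. With limma-voom, 1 was called in the joint test and 1 in mNIA against NIA, and the median log2 fold change of NIA against Chow was -0.23, that of UW against NIA 0.28 and that of mNIA against NIA 0.36. Without the 4 libraries of low weight, 4 were called in the joint test, 4 in UW against NIA and 11 in mNIA against NIA, and the median of NIA against Chow was -0.35. There, Decr1 in NIA against Chow (-0.13) and Hsd17b10 in mNIA against NIA (0.018) changed sign. Leaving out each library in turn gave 0 to 1 genes called in UW against NIA (Acot13 without NIA replicate 2) and 0 in the other tests. The medians against Chow then ran from -0.01 to 0.31 in NIA, -0.05 to 0.30 in UW, 0.03 to 0.35 in mNIA and -0.01 to 0.31 for the mean of the formulas. Between formulas they ran from -0.15 to 0.16 (UW against NIA), -0.04 to 0.16 (mNIA against NIA) and -0.05 to 0.18 (mNIA against UW). The cause was not tested. Over all genes edgeR called 0 in the joint test, NIA against Chow, UW against NIA and mNIA against NIA. In the same order DESeq2 called 174, 127, 375 and 3, limma-voom 1980, 28, 916 and 1979, and edgeR without NIA replicate 2 called 110 in the joint test, 116 in NIA against Chow and 217 in UW against NIA. Same-numbered hearts did not deviate together (median r -0.08 over 24 pairs). With the replicate block 0 genes of the set were called, with medians of 0.16 (NIA), 0.20 (UW), 0.25 (mNIA) and 0.20 (mean) against Chow. Between formulas the block gave 0.06 (UW against NIA), 0.07 (mNIA against NIA) and 0.04 (mNIA against UW). The scalings moved the median of all genes by at most 0.065. The median of UW against NIA was -0.05 under RLE and -0.02 under upper-quartile scaling, a change of sign. NIA replicate 4 had the fewest counts.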

Other observations

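Summed levels of markers of other cell types overlapped between the diets, while some single markers did not. The sum of 12 endothelial markers ran from 814 to 2245 CPM in NIA, 1642 to 2746 CPM in UW, 1529 to 2617 CPM in mNIA and 1764 to 3013 CPM in Chow. The sum of 7 erythrocyte markers ran from 1882 to 7286 CPM in NIA, 1169.7 to 3386 CPM in UW, 1543.5 to 4543 CPM in mNIA and 2400 to 6157 CPM in Chow. Fibroblast markers (10 genes) summed to 1951 to 2472 CPM in NIA, 2095 to 3393 CPM in UW, 2030.2 to 2516 CPM in mNIA and 2233 to 2589 CPM in Chow. Pericyte and smooth muscle markers (10 genes) summed to 2202 to 3772 CPM in NIA, 2702 to 3887 CPM in UW, 2958 to 4011 CPM in mNIA and 2230.3 to 3427 CPM in Chow. Leukocyte markers (10 genes) summed to 166 to 355 CPM in NIA, 189.6 to 477 CPM in UW, 156 to 241 CPM in mNIA and 237 to 294 CPM in Chow. All mNIA hearts lay below all Chow hearts in 3 of 8 tested leukocyte markers (1.26% of all genes). The edgeR test called 0 of the 7 erythrocyte markers in any comparison, while DESeq2 called 1 in UW against NIA (2.8% of all genes) and limma-voom called 7 in the joint test (14.8% of all genes), 6 in UW against NIA (6.85%) and 5 in mNIA against NIA (14.8%). Their median log2 fold change was -1.13 in UW against NIA and -0.72 in mNIA against NIA. Against Chow it was 0.14 in NIA, -0.99 in UW and -0.58 in mNIA. An unadjusted edgeR p under 0.05 was reached by 2 of the 7 in the joint test (6.88% of all genes). It was reached by 4 in UW against Chow (2.35%) and by 4 in UW against NIA (13.9%).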
